A study of Mus with 2 samples.

Results

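The 9 genes described here make, break down, carry or sense retinoic acid: the retinal dehydrogenases Aldh1a1, Aldh1a2 and Aldh1a3, the degrading enzyme Cyp26b1, the cytoplasmic carriers Crabp1 and Crabp2, and the nuclear receptors Rara, Rarb and Rarg. They were taken by symbol and are 9 of 28693 features counted. All 9 were found, and all 9 passed the filter on low counts. They were measured by single-cell RNA sequencing of kidneys from newborn mice (P0) that carry Rbpj c/- together with Foxd1cre/+. Rbpj encodes the DNA-binding partner of the Notch receptors, and Foxd1cre acts in the stromal lineage, where Foxd1 is switched on. The series design names 4 libraries, 2 of controls (Rbpj c/+ ; Foxd1cre/+) and 2 of mutants. Only the 2 mutant libraries were analysed here, as replicates 1 and 2, so no value compares mutant with control kidneys. Every value is from kidneys of the genotype Rbpj c/- ; Foxd1cre/+.

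Retinoic acid is the active form of vitamin A. Retinol is first oxidised to retinal, and the Aldh1a enzymes then oxidise retinal to retinoic acid, which Cyp26 enzymes inactivate by hydroxylation. Crabp proteins bind retinoic acid in the cytoplasm, and the receptors, as partners of Rxr proteins, bind DNA at target genes and switch from repression to activation when retinoic acid binds. In the developing kidney, retinoic acid made in the stroma is known to act on the ureteric bud, where its receptors keep the Ret receptor expressed and the bud branching, and Rarb is known as a gene that is itself induced by retinoic acid.

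The libraries held 163405630 and 135436576 unique molecular identifiers (UMIs, each standing for 1 captured transcript). After filtering, 5910 and 4937 cells were kept, with a median of 11716.5 and 12196 UMIs, and 8 barcodes were shared between the libraries among those with at least 2000 UMIs. Cells were clustered with the 9 genes left out, and clusters were named from marker genes, so each name means only "like". By a direct count of marker UMIs in each cell, 2373 of 2475 stroma-like cells kept that name, but only 1403 of 2242 nephron progenitor-like cells did (620 had none and 158 were early nephron-like) and 721 of 1190 early nephron-like cells (233 had none and 188 were proximal tubule-like). Of 12 stromal markers 11 were highest in the stroma-like class, the exception being Foxd1, which was highest in podocyte-like cells (268 and 244 CPM, counts per 1000000 UMIs of the class, against 86.8 and 80.0 CPM in stroma-like cells). Of 6 nephron progenitor markers 4 were highest in their own class. All markers of the ureteric-like (7), endothelial-like (6), early nephron-like (6), podocyte-like (6), proximal tubule-like (6) and loop of Henle-like (4) classes were highest where their names say. Clusters that met no rule for a name held 702 cells (11.9%) and 523 cells (10.6%). Rbpj itself was counted in stroma-like cells at 26.4 and 26.1 CPM and in the nephron progenitor-like class at 62.0 and 58.5 CPM. The libraries read only 3' ends, and an mRNA missing an exon upstream of its 3' end is counted like an intact one, so these counts do not check the deletion. Xist was counted at 1169 CPM in replicate 1 and 0.187 CPM in replicate 2, and Ddx3y at 0 and 74.0 CPM.

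A level in CPM divides a gene's UMIs by all UMIs of the cells of a class in 1 library, so classes of unequal size and depth can be set side by side. Means over both libraries are given ± SD (n = 2). The labels do not name the animals, and the counts of Xist and Ddx3y given above show a female and a male source, so the libraries do not share 1 animal. The p-values rest on how far differences between classes disagree between these 2 samples only, estimated over all classes of a fit. An overall difference between the samples is taken out by the library block described next. Differences between classes were tested on summed counts with edgeR's quasi-likelihood test, with library as a block, and are given as log2 fold changes ± standard error (SE) with Benjamini-Hochberg adjusted p-values over all genes. A gene was called at an adjusted p under 0.05.

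Aldh1a2, the main retinoic acid-making enzyme of the embryo (GRCm38, chromosome 9, 71215789 to 71296243), was a gene of the stroma and of the early nephron lineage. It stood at 258 and 262 CPM in stroma-like cells, in early nephron-like cells at 241 and 232 CPM and in the nephron progenitor-like class at 235 and 167 CPM. The stroma-like class was above both of the others in both libraries, while the ranges of the early nephron-like and progenitor-like classes overlapped. Next in order came proximal tubule-like cells (102 ± 17.5 CPM), podocyte-like cells (66.0 ± 0.944 CPM) and the loop of Henle-like class (46.0 ± 8.55 CPM), each apart from the next. Ureteric-like cells (4.75 and 6.82 CPM) and endothelial-like cells (4.67 and 2.08 CPM) were near the bottom. Barcodes with over 100 and at most 499 UMIs were taken as free RNA, and what they hold was not tested. They had 93.8 and 79.9 CPM of Aldh1a2, so podocyte-like, loop of Henle-like, ureteric-like and endothelial-like cells lay below that free RNA level. Erythroid-like cells lay far below it (4.54 and 2.37 CPM), so free RNA need not reach a class at its full level. A class below it may thus still express the gene. Barcodes with 10 to 100 UMIs had 40.6 and 48.4 CPM, and against these the podocyte-like level was higher in both libraries. With each cell thinned to 5000 UMIs, Aldh1a2 was detected in 47.4% and 48.0% of stroma-like cells, against 1.94% and 1.56% of endothelial-like cells. Without thinning those shares were 56.5% and 56.4% against 4.81% and 2.97%. Thinning left out 113 and 115 stroma-like and 76 and 50 endothelial-like cells of lower depth, and the median depths of the classes were 9726.5 and 9279 UMIs and 9071 and 10021.5 UMIs.

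The UMIs of Aldh1a2 were spread over several classes. Nephron progenitor-like cells held 33.0 ± 3.35% of them, early nephron-like cells 28.0 ± 1.11% and stroma-like cells 21.6 ± 2.48%. The 7 stroma markers summed to 89.0 and 92.3 CPM in nephron progenitor-like cells and to 4890 CPM on average in stroma-like cells, none of them at 0 in either class. The stroma markers were thus low in the class that held the most Aldh1a2 UMIs. Stroma-like cells were above nephron progenitor-like cells by 0.38 ± 0.11 on the log2 scale (edgeR adjusted p = 0.00745). That difference was 0.62 without replicate 1 and 0.13 without replicate 2. It was lost at a minimum of 5000 UMIs, and in cells with at most 5% mitochondrial UMIs its sign turned (-0.10). Against endothelial-like cells the difference was 6.20 ± 0.19 (edgeR adjusted p = 4.99e-17, 6.96 without replicate 1 and 5.78 without replicate 2), and against ureteric-like cells it was 5.66 ± 0.19 (edgeR adjusted p = 1.05e-16). Without doublet removal these differences were 5.20 and 4.53.

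Along the nephron lineage Aldh1a2 differed from cluster to cluster. In the nephron progenitor-like cluster led by Cited1 and Six2, genes of the self-renewing state, it stood at 170 and 118 CPM. In the progenitor-like cluster led by Fam132a and Bmper, which also had Wnt4 among its leading genes, it stood at 319 and 261 CPM, above the Cited1 and Six2 cluster in both libraries. The early nephron-like cluster led by Osr2 and Cdh6 had 277 and 275 CPM, and the one led by Lhx1 and Wnt4 had 219 and 209 CPM. An unnamed cluster led by Sim2 and Irx1, genes of the distal nephron, had 90.7 ± 1.26 CPM. Both libraries thus placed the Osr2 and Fam132a clusters above the Cited1 and Sim2 clusters. Podocyte-like sums were below nephron progenitor-like sums by 1.71 on the log2 scale (log2 fold change -1.71 ± 0.13, edgeR adjusted p = 1.59e-10), and proximal tubule-like sums also differed (-0.96 ± 0.12, edgeR adjusted p = 3.12e-07). In cells with at most 5% mitochondrial UMIs the proximal tubule difference turned to 0.31 (adjusted p = 0.0407), and by the per-cell marker gate it was not called (adjusted p = 0.0593). The podocyte difference was -1.94 to -1.11 over the alternatives, and no tested one ended its call.

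Within the stroma, Aldh1a2 was highest in the nephrogenic zone. The sub-cluster led by Scx, Reln and Gdnf, named nephrogenic-zone stroma-like (286 and 259 cells), had 577 and 565 CPM, and after thinning 90.1% and 88.6% of its cells had a UMI. Interstitial stroma-like cells, led by Igfbp3 and Clca3a1 (217 and 126 cells), had 51.8 and 67.6 CPM. Medullary stroma-like cells, led by Nts, Wnt4 and Cxcl14 (208 and 205 cells), had 25.4 and 10.3 CPM. Adventitial-like fibroblasts, led by Clec3b and Dlk1 (73 and 46 cells), had 31.4 and 67.0 CPM, a range that overlaps the interstitial one. Contractile mural-like cells (23 and 17 cells) held only 1 and 2 UMIs. The nephrogenic-zone level was above the medullary one by 5.01 ± 0.21 on the log2 scale (edgeR adjusted p = 6.40e-18, 5.82 without replicate 1 and 4.52 without replicate 2) and above the interstitial one by 3.29 ± 0.18 (edgeR adjusted p = 7.94e-15). The interstitial difference was 3.09 to 5.73 over the alternatives, the highest at the finer sub-clustering. The names rest on 2 of 4 markers that were highest in the nephrogenic-zone sub-cluster (not Ntn1 or Dlk1) and 2 of 4 in the interstitial one (not Cxcl14 or Smoc2).

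Dividing stromal cells lay between these extremes. The sub-clusters led by S-phase genes, histone genes and mitotic genes, which received no name, had 362 ± 6.12, 343 ± 5.10 and 262 ± 2.45 CPM of Aldh1a2. An unnamed sub-cluster with Itga8, a mesangial gene, and globin genes among its leading genes had 180 ± 0.856 CPM. The libraries differed by less than 10 CPM in each of these 4 sub-clusters, and all 4 were below the nephrogenic-zone and above the interstitial sub-cluster in both libraries.

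**Figure D1:**
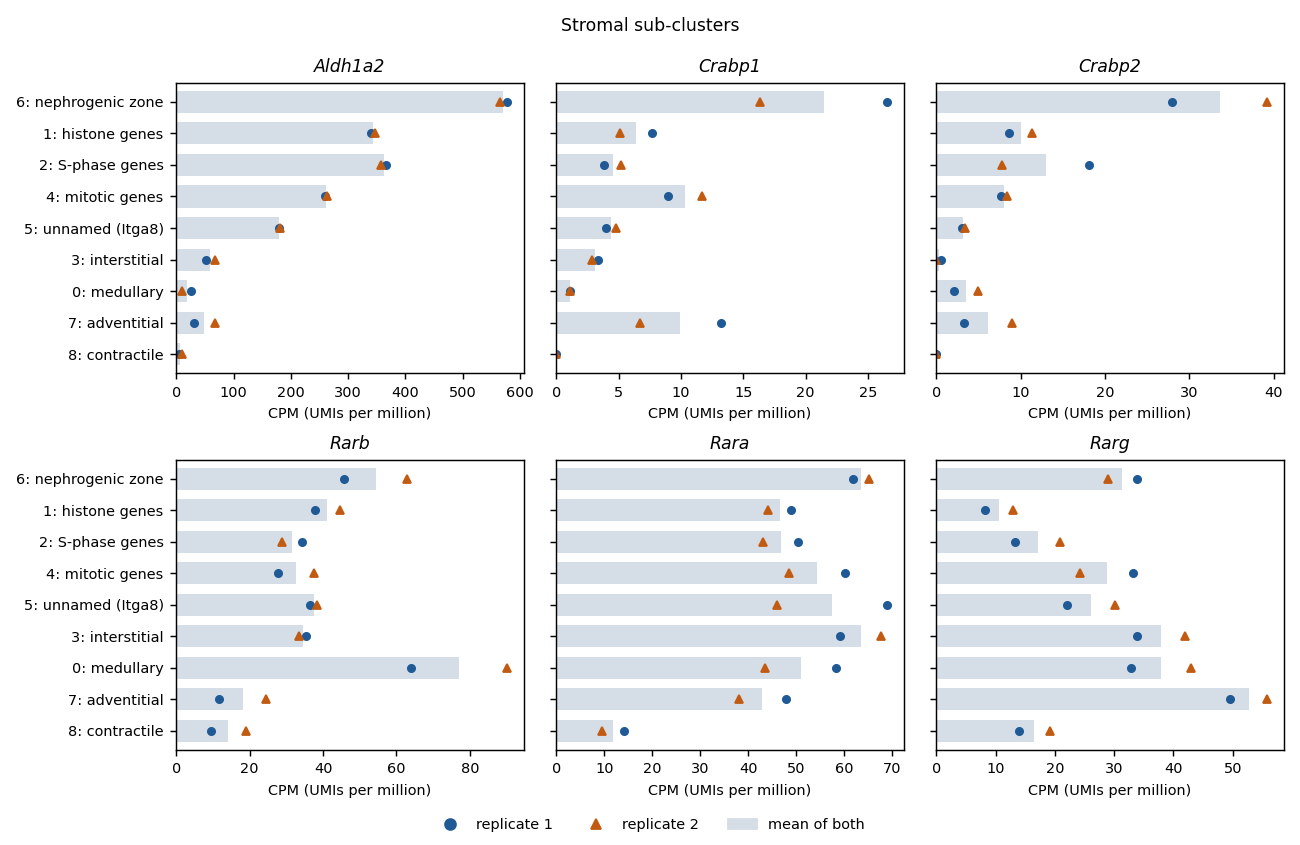
Levels in CPM (horizontal axes) of 6 genes in the 9 stromal sub-clusters (vertical axis, number and name or leading genes); circles are replicate 1, triangles replicate 2 and bars their mean. Aldh1a2, Crabp1 and Crabp2 have their longest bar in the nephrogenic-zone sub-cluster, while Rarb has its longest bar in the medullary one (77.1 CPM).

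Aldh1a1 (chromosome 19, 20492583 to 20643463), another retinal dehydrogenase, was a ureteric gene. It stood at 34.0 and 42.2 CPM in ureteric-like cells, which held 65.7 ± 3.68% of its UMIs. Podocyte-like cells followed at 5.66 and 8.05 CPM and proximal tubule-like cells at 2.04 ± 0.198 CPM, each apart from the next class in order, and the ranges of the 7 lowest classes overlapped from one to the next. Nephron progenitor-like cells held 3 UMIs in replicate 1 and 0 in replicate 2, where a count of 0 allows up to 0.132 CPM. The ratio of ureteric-like to nephron progenitor-like summed levels was 619, with an exact 95% interval of 210 to 3014 that covers counting error only. On the log2 scale the fitted difference of 8.86 was 11.24 without replicate 1 and 7.98 without replicate 2. Ureteric-like sums were above stroma-like sums (stroma against ureteric log2 fold change -4.89 ± 0.36, edgeR adjusted p = 1.27e-10, -6.12 without replicate 1, -4.22 without replicate 2 and -4.11 by the per-cell marker gate). Free RNA in the barcodes of low count had 2.64 and 2.34 CPM, so the stroma-like level (1.68 and 0.543 CPM) did not exceed it. In barcodes with 10 to 100 UMIs, from 22 and 19 UMIs of the gene, it was 28.8 and 23.0 CPM, and only ureteric-like cells were above that. In the stroma-like class, 15 of 23 UMIs of replicate 1 and 4 of 6 of replicate 2 were in adventitial-like fibroblasts.

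Aldh1a3 (chromosome 7, 66390892 to 66427477) was also highest in the ureteric epithelium. Ureteric-like cells had 246 and 189 CPM and held 57.3 ± 11.1% of its UMIs, and after thinning 55.9% and 51.5% of them had a UMI, against 0.43% and 0.625% of endothelial-like cells (86.8% and 80.4% against 1.48% and 0.811% without thinning). Stroma-like cells came next among the named classes at 6.86 and 4.97 CPM, apart from the ureteric values and below the free RNA level of 22.4 and 28.5 CPM. A further 30.1% of its UMIs lay in an unnamed cluster led by Tmem52b, S100g and Atp6v1g3, genes of the distal and connecting segments (112 and 92 cells), at 108 and 166 CPM. In adventitial-like fibroblasts it stood at 49.6 and 46.9 CPM, from 30 and 21 UMIs, which is above the stroma-like mean in both libraries. The ureteric-like class was above stroma (stroma against ureteric -5.06 ± 0.20, edgeR adjusted p = 2.26e-15) and above nephron progenitors (6.32 ± 0.21, edgeR adjusted p = 9.39e-17).

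Inside the ureteric-like class the 2 enzymes were not distributed alike. The sub-cluster led by Upk3a and Sprr genes, which are genes of the urothelium, had 165 ± 4.64 CPM of Aldh1a3 but only 5.56 ± 2.89 CPM of Aldh1a1. Aldh1a1 stood at 56.1 ± 2.69 CPM in the sub-cluster led by S100g and Hoxa10, at 47.5 and 77.5 CPM in the ureteric tip-like one and at 26.3 ± 0.338 CPM in the collecting duct-like one. All 3 were above the Upk3a sub-cluster in both libraries. Aldh1a1 was higher in tip-like than in collecting duct-like cells (1.09 ± 0.34, edgeR adjusted p = 0.0164), and with DESeq2 this difference missed the threshold (adjusted p = 0.0530). It was 0.74 to 2.29 over the alternatives, lowest without replicate 2 and highest without doublet removal. Aldh1a3 did not pass the test between tip-like and collecting duct-like cells (-0.22 ± 0.18, edgeR adjusted p = 0.448). These sub-clusters are small, with 32 and 33 tip-like and 32 and 29 collecting duct-like cells. Their depths also differed. The median was 60691.5 and 20771 UMIs in tip-like cells and 15957 and 17047 UMIs in collecting duct-like cells. The leading genes of the tip-like cells were histone and mitotic genes, and those of the collecting duct-like cells included globin genes.

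**Figure D2:**
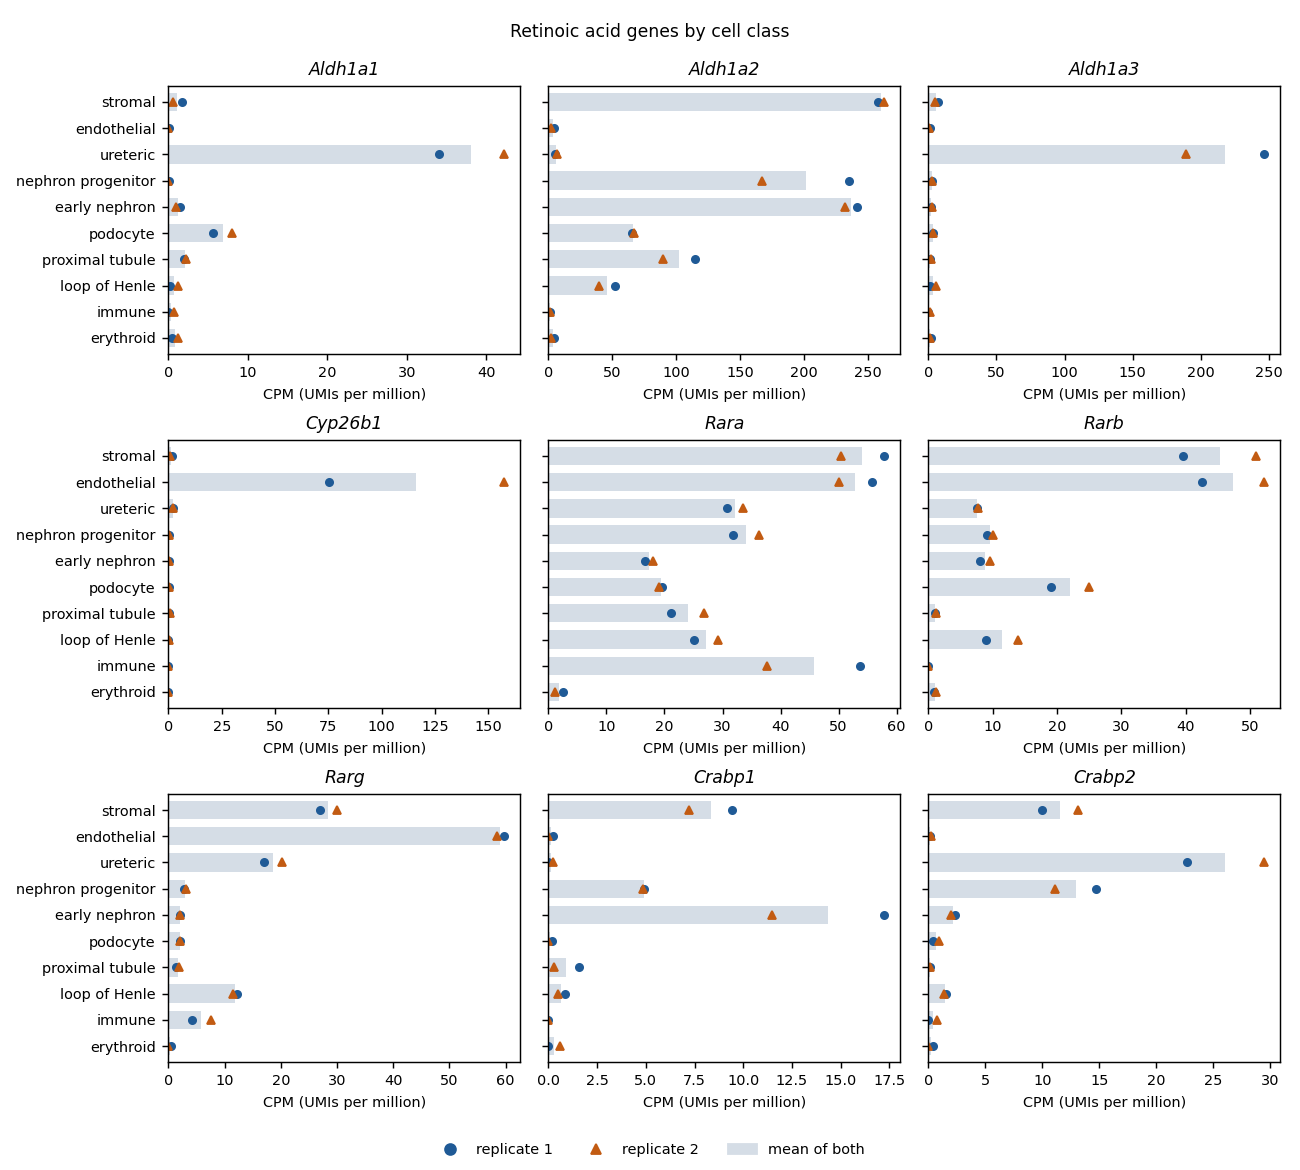
Levels in CPM (horizontal axes, each panel with its own scale) of the 9 genes in the 10 named cell classes (vertical axis); circles are replicate 1, triangles replicate 2 and bars their mean. Aldh1a1 and Aldh1a3 peak in ureteric-like cells, Cyp26b1 in endothelial-like cells and Crabp1 in early nephron-like cells, with Aldh1a2 near 200 CPM or above in 3 classes.

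Cyp26b1, which breaks down retinoic acid (chromosome 6, 84571414 to 84593908), was an endothelial gene in these kidneys. Endothelial-like cells had 75.4 and 157 CPM and held 75.8 ± 3.04% of its UMIs. The next classes, ureteric-like (1.99 and 2.34 CPM) and stroma-like (1.75 and 0.543 CPM), were below the free RNA level of 7.88 and 11.3 CPM, and immune-like and erythroid-like cells had no UMI. In erythroid-like cells a count of 0 allows up to 1.24 and 1.78 CPM. After thinning, 18.9% and 30.6% of endothelial-like cells had a UMI, against 0.187% and 0.182% of nephron progenitor-like cells (28.3% and 40.5% against 0.813% and 0.617% without thinning). Endothelial-like sums were above nephron progenitor-like sums by 8.25 ± 0.27 on the log2 scale (edgeR adjusted p = 7.22e-16, 8.91 without replicate 1, 7.61 without replicate 2 and 9.48 with at most 5% mitochondrial UMIs). They were also above stroma-like sums (stroma against endothelial -6.47 ± 0.26, edgeR adjusted p = 2.40e-14, -8.15 without replicate 1 and -5.42 without replicate 2).

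The endothelial level of Cyp26b1 was higher in replicate 2 than in replicate 1, and over all kept cells the libraries had 7.14 and 11.7 CPM, a ratio of 0.608. The other 8 genes had ratios from 0.846 (Rarb) to 1.29 (Crabp1). Replicate 2 also had the higher value in each of the 3 endothelial clusters that held most of the UMIs: 84.0 and 167 CPM in the larger cluster led by Plvap and Aplnr (399 and 239 cells), 115 and 183 CPM in the smaller one, and 82.1 and 179 CPM in a cluster led by Sox17 and Gja4, genes of arteries (159 and 88 cells). The Sox17 cluster received no class name because the neural marker Stmn2 was among its leading genes. The libraries also differ in Xist and Ddx3y, as given above, and the part of that in the Cyp26b1 values was not tested.

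The cluster led by Gpihbp1 and Ehd3, genes of glomerular capillaries (49 and 30 cells), differed from the other endothelial clusters. It had 5 and 2 UMIs of Cyp26b1, which is 3.23 CPM (95% interval 1.05 to 7.53) and 3.89 CPM (0.471 to 14.0). These intervals lie below the Cyp26b1 values of the other 3 clusters in both libraries. Rarb was likewise low there, at 4.52 CPM from 7 UMIs and at 0 in replicate 2, where a count of 0 allows up to 5.83 CPM. Rarg was not: it stood at 85.9 and 113 CPM, above the larger Plvap cluster (56.5 and 54.5 CPM), the smaller Plvap cluster (45.4 and 50.1 CPM) and the Sox17 cluster (61.3 and 68.6 CPM) in both libraries. Rara had 68.4 and 79.7 CPM there against 49.4 and 45.7 CPM in the larger Plvap cluster. In the Sox17 cluster Rarb had 17.3 and 24.3 CPM, between the Gpihbp1 cluster and the larger Plvap cluster (51.7 and 58.4 CPM). These are descriptions of 4 clusters, with no test.

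**Figure D3:**
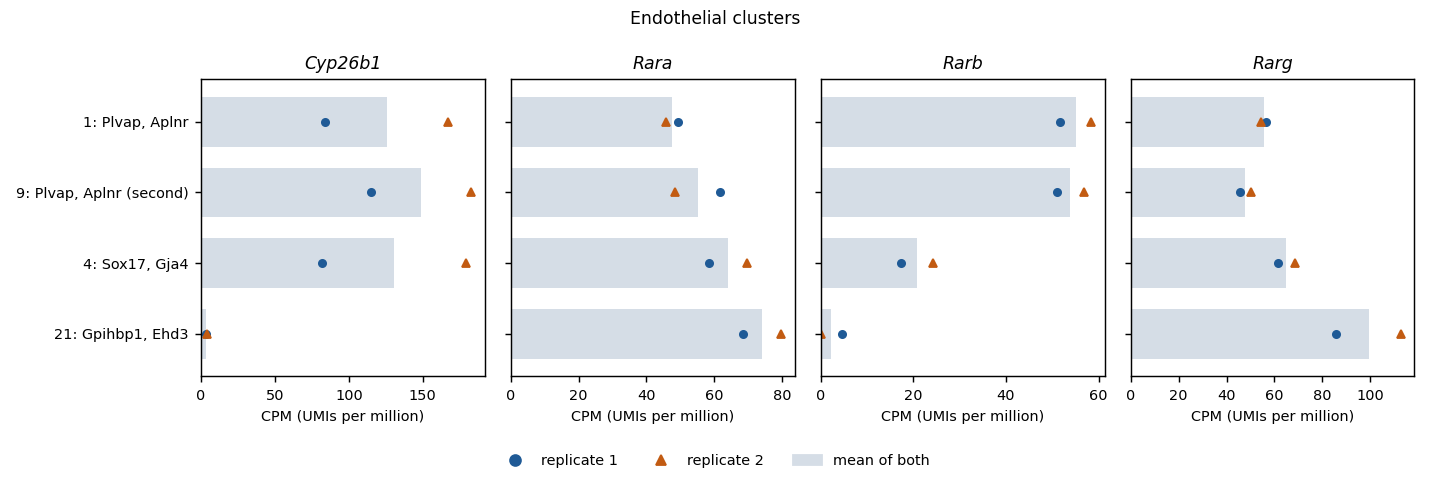
Levels in CPM (horizontal axes) of Cyp26b1 and the 3 receptors in 4 endothelial clusters (vertical axis, cluster number and leading genes); circles are replicate 1, triangles replicate 2 and bars their mean. Cyp26b1 and Rarb nearly vanish in the Gpihbp1 cluster, where Rarg is highest (99.3 CPM), and the Cyp26b1 triangles lie right of the circles in the other 3 clusters.

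A small number of Cyp26b1 UMIs lay elsewhere. Ureteric tip-like cells held 13 and 8 UMIs (5.52 and 6.33 CPM) and collecting duct-like cells 0 and 0. The tip-like level was below that of free RNA in both libraries. As free RNA need not reach a class at its full level, this does not decide whether tip-like cells express the gene. The fit called the difference (edgeR adjusted p = 0.0232). Without doublet removal it was not called (log2 fold change 0.45, adjusted p = 0.747), nor at a minimum of 5000 UMIs (adjusted p = 0.0588). Adventitial-like fibroblasts had 19 UMIs in replicate 1 but 1 in replicate 2, so their level of 31.4 CPM in replicate 1 was not repeated at 2.23 CPM in replicate 2.

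The carriers Crabp1 (chromosome 9, 54764748 to 54773110) and Crabp2 (chromosome 3, 87948693 to 87953372) were sparse, and their leading classes differed. Crabp1 stood at 17.2 and 11.5 CPM in early nephron-like cells, which held 50.6 ± 5.86% of its UMIs, ahead of stroma-like cells at 9.42 and 7.24 CPM and nephron progenitor-like cells at 4.92 and 4.87 CPM, with no overlap between these 3 classes. Endothelial-like cells held 2 and 0 UMIs, ureteric-like cells 0 and 1, and immune-like cells none. Crabp2 stood at 22.7 and 29.4 CPM in ureteric-like cells, apart from nephron progenitor-like cells (14.7 and 11.1 CPM) and stroma-like cells (10.0 and 13.1 CPM), whose ranges overlapped. Nephron progenitor-like cells held the most of its UMIs (45.9 ± 5.53%). Endothelial-like and proximal tubule-like cells each held 1 UMI in each library. Free RNA had 4.17 and 2.67 CPM of Crabp1 and 6.35 and 6.45 CPM of Crabp2 in the barcodes with over 100 and at most 499 UMIs. In barcodes with 10 to 100 UMIs it had 2.62 and 1.21 CPM of Crabp1, from 2 and 1 UMIs, and 6.54 and 4.84 CPM of Crabp2, from 5 and 4 UMIs. The 3 classes named for each carrier were above both levels in both libraries. For Crabp1 in nephron progenitor-like cells the margin in replicate 1 was within counting error (95% interval 4.12 to 5.83 CPM, against 3.31 to 5.17 CPM for free RNA).

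In the stroma both carriers were highest in the nephrogenic zone, as Aldh1a2 was. Crabp1 had 26.5 and 16.4 CPM in nephrogenic-zone stroma-like cells, against 1.06 and 1.09 CPM in medullary and 3.38 and 2.86 CPM in interstitial stroma-like cells. Crabp2 had 28.0 and 39.2 CPM in the nephrogenic zone, against 2.12 and 4.89 CPM in the medulla and 1 and 0 UMIs in the interstitial sub-cluster. The groups did not overlap for either gene, and the medullary values of both carriers were below the free RNA level of the barcodes with over 100 UMIs. Against medullary stroma the log2 differences were 4.31 ± 0.55 for Crabp1 (edgeR adjusted p = 6.89e-07) and 3.27 ± 0.39 for Crabp2 (edgeR adjusted p = 8.94e-08). At the finer sub-clustering these were 3.22 and 2.26, both still called. Against interstitial stroma the Crabp1 difference was 2.78 ± 0.48 (edgeR adjusted p = 6.96e-05), and it was 2.50 to 9.78 over the alternatives, the highest at the finer sub-clustering. For Crabp2 the ratio of nephrogenic-zone to interstitial summed levels was 93.6, with an exact 95% interval of 16.6 to 3720. Its log2 difference of 6.45 was 3.98 to 10.66 over the alternatives, the highest without replicate 1.

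Crabp2 also separated the ureteric sub-clusters. It had 4.67 and 3.16 CPM in tip-like cells (below free RNA) and 41.7 and 55.0 CPM in collecting duct-like cells, and the log2 difference was -3.63 ± 0.39 (edgeR adjusted p = 1.35e-08), or -2.66 without doublet removal. The Upk3a sub-cluster (38.4 CPM on average) and the S100g sub-cluster (23.4 CPM) lay between them. Aldh1a1 and Crabp2 thus had opposite orders in tip-like and collecting duct-like cells.

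Cells of the stroma with a UMI of Aldh1a2 more often had one of Crabp2. At 5000 UMIs per cell, Crabp2 was found in 7.90% and 10.4% of stroma-like cells with Aldh1a2 and in 1.09% and 2.26% of those without. Within the nephrogenic-zone sub-cluster the gap was not seen, with 10.2% and 16.1% of cells with Aldh1a2 and 14.8% and 21.4% of those without. These shares are given with no test, and both genes are high in that sub-cluster and low in the medullary and interstitial ones.

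Of the receptors, Rara (chromosome 11, 98927800 to 98974942) was the most evenly spread. It stood at 57.7 and 50.4 CPM in stroma-like, 55.7 and 50.0 CPM in endothelial-like and 53.7 and 37.6 CPM in immune-like cells, 3 classes whose ranges overlapped. Nephron progenitor-like (34.0 ± 3.07 CPM) and ureteric-like cells (32.1 ± 1.89 CPM) overlapped each other below them, and podocyte-like (19.3 ± 0.439 CPM), early nephron-like (17.3 ± 1.08 CPM) and erythroid-like cells (1.83 ± 0.913 CPM) were lowest. Free RNA had 28.1 and 27.5 CPM, and the upper 5 classes were above it in both libraries. In barcodes with 10 to 100 UMIs it was 40.6 and 46.0 CPM, and only stroma-like and endothelial-like cells were above that in both libraries. Stroma-like sums were above nephron progenitor-like sums by 0.66 ± 0.12 (edgeR adjusted p = 5.39e-05) and did not pass against endothelial-like sums (0.04 ± 0.13, edgeR adjusted p = 0.828). Among immune-like cells, the cluster led by mast cell and monocyte genes (Cma1, Lyz2) had 102 and 85.3 CPM and the macrophage cluster led by C1qa had 26.9 and 23.4 CPM.

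Rarb (chromosome 14, 16430839 to 17082331) was highest in endothelial-like (42.6 and 52.1 CPM) and stroma-like cells (39.6 and 51.0 CPM), which overlapped and did not pass the test against each other (stroma against endothelial -0.06 ± 0.10, edgeR adjusted p = 0.666). Podocyte-like cells came next at 19.1 and 25.04 CPM, apart from both. Nephron progenitor-like cells had 9.55 ± 0.644 CPM, early nephron-like cells 8.83 ± 1.09 CPM, ureteric-like cells 7.59 ± 0.118 CPM and proximal tubule-like cells 1.08 ± 0.111 CPM. Free RNA had 9.30 and 10.96 CPM, and immune-like cells had no UMI, which allows up to 1.79 and 2.26 CPM. Stroma-like cells held 33.3 ± 2.86% of its UMIs.

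Rarb was above the nephron progenitor-like level in 3 of the classes tested and below it in the other two, ureteric-like (given below) and proximal tubule-like. It was higher in stroma-like (2.22 ± 0.10, edgeR adjusted p = 1.15e-13), endothelial-like (2.28 ± 0.11, edgeR adjusted p = 1.02e-13) and podocyte-like sums (1.08 ± 0.13, edgeR adjusted p = 2.78e-07). It was lower in proximal tubule-like sums (-3.12 ± 0.23, edgeR adjusted p = 1.38e-10), a difference that shrank to -1.01 with at most 5% mitochondrial UMIs (adjusted p = 0.00851). Within the stroma it followed another order than Aldh1a2. Medullary stroma-like cells had 64.1 and 90.2 CPM, nephrogenic-zone stroma-like cells 45.8 and 62.9 CPM and interstitial stroma-like cells 35.5 and 33.3 CPM. The medullary range lay above both of the others. The nephrogenic-zone level was below the medullary one (-0.49 ± 0.14, edgeR adjusted p = 0.0101), a call that was lost with no filter on low counts (adjusted p = 0.0656). It was above the interstitial one (0.59 ± 0.18, edgeR adjusted p = 0.0152), where a finer sub-clustering turned the sign (-0.10, adjusted p = 0.731), and that call was also lost with at most 5% mitochondrial UMIs and without doublet removal. Adventitial-like fibroblasts (18.1 ± 9.18 CPM) and contractile mural-like cells (14.2 ± 6.90 CPM) had the lowest values, from 7 and 11 and from 2 and 4 UMIs.

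Rarg (chromosome 15, 102234938 to 102257522) was highest in endothelial-like cells. Endothelial-like cells had 59.7 and 58.5 CPM, stroma-like cells 27.0 and 29.9 CPM, ureteric-like cells 17.0 and 20.2 CPM and the loop of Henle-like class 11.8 ± 0.566 CPM, with no overlap between any neighbours in that order. Nephron progenitor-like (2.94 ± 0.368 CPM), early nephron-like, podocyte-like and proximal tubule-like cells (1.61 CPM) were below the free RNA level of 11.7 and 11.9 CPM. Endothelial-like sums were above nephron progenitor-like sums by 4.31 ± 0.13 (edgeR adjusted p = 1.45e-17) and above stroma-like sums (stroma against endothelial -1.05 ± 0.11, edgeR adjusted p = 2.31e-08, and -1.71 with at most 5% mitochondrial UMIs). Stroma-like sums were above those of nephron progenitors (3.26 ± 0.13, edgeR adjusted p = 5.26e-15) and of ureteric-like cells (0.74 ± 0.13, edgeR adjusted p = 4.02e-05). Ureteric-like sums were also above those of nephron progenitors (2.52 ± 0.16, edgeR adjusted p = 1.05e-11). In the stroma, adventitial-like fibroblasts had 49.6 and 55.8 CPM, above medullary (32.8 and 42.9 CPM), interstitial (33.8 and 41.9 CPM) and nephrogenic-zone cells (33.8 and 28.9 CPM). The sub-cluster led by histone genes had 8.15 and 13.005 CPM.

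**Figure D4:**
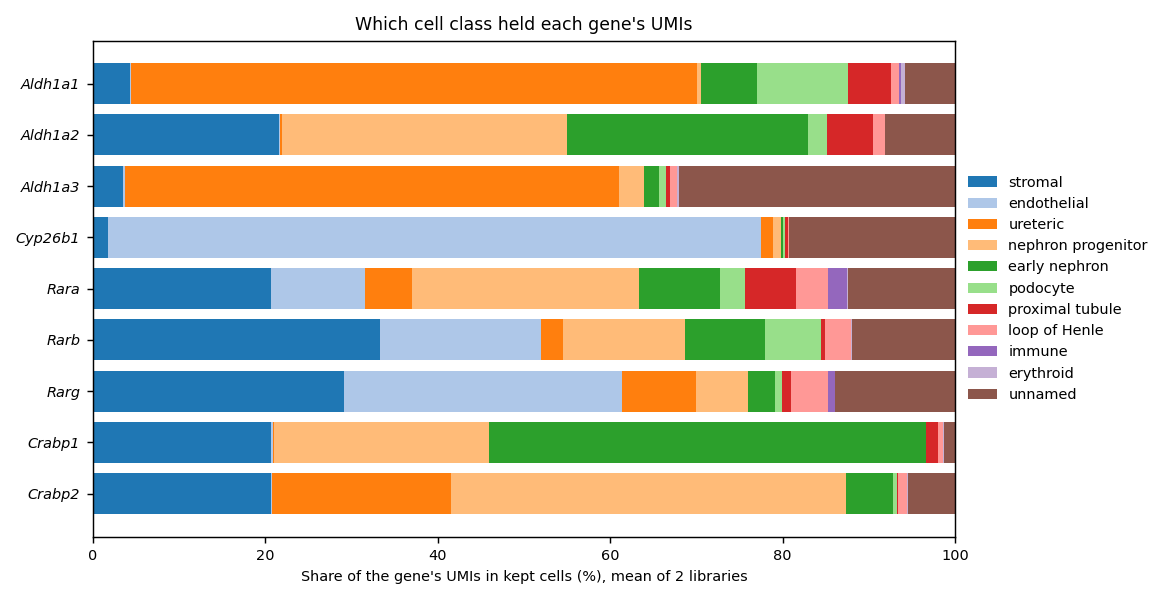
Share of each gene's UMIs (horizontal axis, percent, mean of both libraries) held by each cell class (colours) for the 9 genes (vertical axis). Cyp26b1 is filled mostly by the endothelial-like class (75.8%) and Aldh1a1 by the ureteric-like class (65.7%), while Aldh1a2 and the receptors are spread over several classes.

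Read as counts, most of the 9 genes passed the test between any 2 large classes, and so did most other genes. Against nephron progenitors, stroma-like sums were higher for 8 of the 9 genes and lower for none, where 57.7% of the 15084 genes tested were called. The exception was Crabp2 (-0.19 ± 0.20, edgeR adjusted p = 0.452). Of the 8, Aldh1a1, Aldh1a3 and Cyp26b1 had stroma-like levels below free RNA in both libraries, and the Cyp26b1 difference (1.79 ± 0.60, edgeR adjusted p = 0.0155) was 0.76 without replicate 1 and 2.19 without replicate 2. The split depends on the settings. Crabp1 was not called at 5000 UMIs, with at most 5% mitochondrial UMIs, with DESeq2 or without the block. Cyp26b1 was not called without doublet removal, and Aldh1a2 lost its call under 3 settings. Crabp2 was called lower with at most 5% mitochondrial UMIs (-1.37, adjusted p = 1.42e-04) and by the per-cell marker gate (-0.51, adjusted p = 0.0462). The share of all genes called higher there was 29%. The count of 8 in 1 direction thus stands beside a background in which the 2 directions were nearly equal (28.7% called lower), and no test was made of the 9 as a list. The median log2 fold change of the 9 genes was 1.25, and that of all genes was -0.00257.

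Stroma-like against endothelial-like sums were called for 7 genes, 5 higher and 2 lower, where 51% of all genes were called, 26.8% higher and 24.2% lower. The lower ones were Cyp26b1 and Rarg. Stroma-like against ureteric-like sums were called for 8 genes, 5 higher and 3 lower (background 58.9%, with 29.1% higher and 29.9% lower), the lower ones being Aldh1a1, Aldh1a3 and Crabp2 (-1.05 ± 0.22, edgeR adjusted p = 2.59e-04). Ureteric-like sums differed from nephron progenitor-like ones for 8 genes, 5 higher and 3 lower (background 57.4%, with 29.3% higher and 28.2% lower). Of these the lower call for Rarb (-0.45 ± 0.16, edgeR adjusted p = 0.0203) was lost under 5 of the alternatives. Endothelial-like sums differed from nephron progenitor-like ones for 8 genes, 4 in each direction (background 63.1%, with 29.7% higher and 33.4% lower). Of these the lower call for Aldh1a3 (-1.61 ± 0.58, edgeR adjusted p = 0.0190) was lost under 3 alternatives, with an adjusted p of up to 0.110. Podocyte-like sums differed for 6 genes, 2 higher and 4 lower (background 61.8%, with 30.6% higher and 31.2% lower). Proximal tubule-like sums differed for 7, 1 higher and 6 lower (background 67.8%, with 33.2% higher and 34.7% lower). Of the 6 lower, Aldh1a2, Crabp1 and Rarg turned sign with at most 5% mitochondrial UMIs (0.31, 1.91 and 0.31), and Aldh1a2 and Crabp1 were not called by the per-cell marker gate (adjusted p = 0.0593 and 0.0599). With backgrounds of 51% to 67.8%, these counts say little about the 9 genes as a group. The size of the differences varied by comparison. The median absolute log2 fold change was 4.31 for the 9 genes and 0.73 for all genes in endothelial-like against nephron progenitor-like sums. It was 1.08 against 0.81 for podocyte-like and 0.96 against 0.82 for proximal tubule-like sums.

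Backgrounds were lower within a class. Nephrogenic-zone against medullary stroma-like sums were called for 4 of 9 genes, 3 higher (Aldh1a2, Crabp1, Crabp2) and 1 lower (Rarb), where 22.8% of 14110 genes were called, 10.4% higher and 12.4% lower. Nephrogenic-zone against interstitial stroma-like sums were called for 4, all higher (Aldh1a2, Crabp1, Crabp2 and Rarb), where 21% were called, 9.15% higher and 11.8% lower. This comparison was chosen after the sub-clusters were seen. Tip-like against collecting duct-like sums were called for 4, with Aldh1a1 and Cyp26b1 (below free RNA) higher and Crabp2 and Rara lower (Rara -0.79 ± 0.25, edgeR adjusted p = 0.0192), where 24.8% were called, 11.4% higher and 13.4% lower. With a minimum of 5000 UMIs the last count was 2, as Cyp26b1 and Rara missed the threshold.

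**Figure D5:**
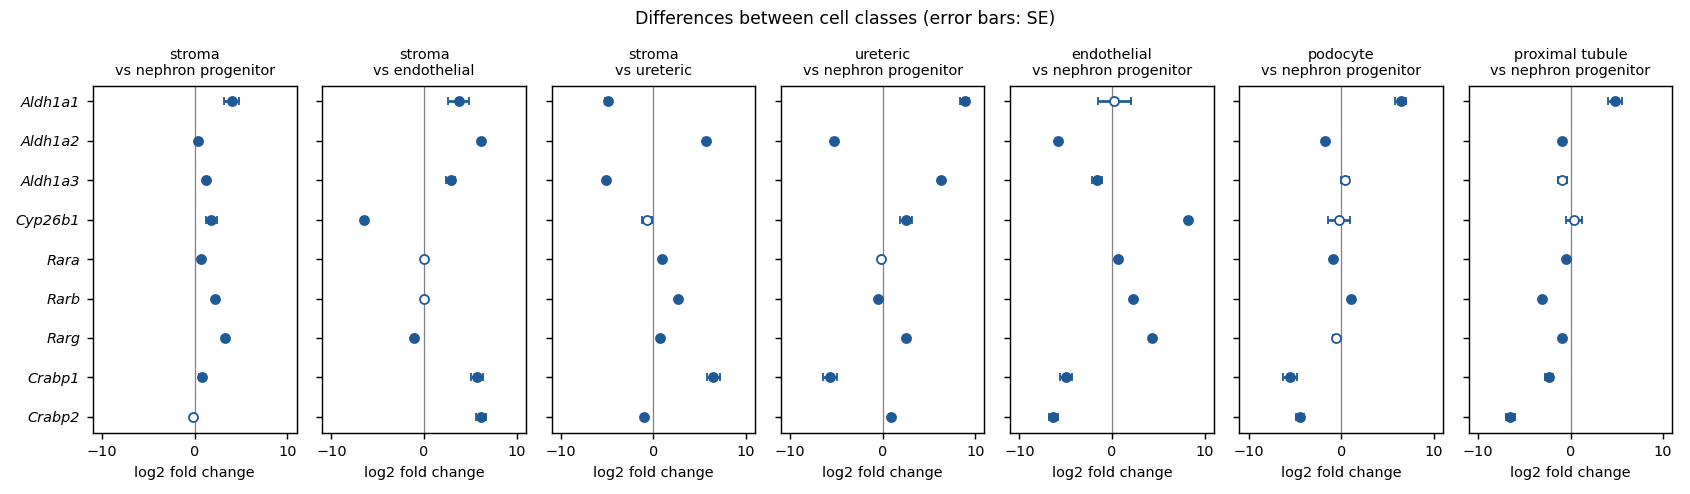
Log2 fold changes (horizontal axes, error bars SE) of the 9 genes (vertical axis) in 7 comparisons of summed cell classes, each panel headed by the 2 classes compared. Filled points passed an adjusted p of 0.05 and open points did not; Cyp26b1 lies far right in endothelial against nephron progenitor (8.25) and Aldh1a3 far right in ureteric against nephron progenitor (6.32).

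Further genes of the pathway, from 5 lists of 46 genes in all, were tested in the same fits, in which 40 were measured well enough to test between classes. Stroma-like against nephron progenitor-like sums were called for 28 of them, 19 higher and 9 lower, beside 29% and 28.7% of all genes. The largest changes were in Ecm1 (7.24 ± 0.15), a retinoic acid-responsive gene of the extracellular matrix, Rbp4 (5.28 ± 0.30), a retinol carrier, and Rxrg, a partner of the receptors. For Rxrg, nephron progenitor-like cells held 3 UMIs and the ratio of summed levels was 51.4 (exact 95% interval 17.0 to 254.9). Its log2 fold change of 5.38 was 4.40 without replicate 1 and 7.93 without replicate 2. Of 10 genes tested from the list known to respond to retinoic acid, 7 were higher and 1 lower, with a median log2 fold change of 2.38 against -0.00257 for all genes. Meis1, 1 of the 7, was a stroma marker that had helped to name the class. In ureteric-like against nephron progenitor-like sums, 12 genes were higher and 14 lower (29.3% and 28.2% of all genes), led by Ret (9.14 ± 0.37), the receptor that drives branching, and by Adh7 and Adh1 (6.54 ± 0.33), alcohol dehydrogenases that can oxidise retinol. Adh7 rested on 45 UMIs against 1. Of the 10 responsive genes, 1 was higher there, Ret, and 6 were lower. Inside the stroma, where Aldh1a2 was higher in the nephrogenic zone, 2 of the list were higher and 5 lower than in the medulla (median -0.30, against -0.02 for all genes), beside 10.4% and 12.4% of all genes. Against the interstitial sub-cluster 3 were higher and 5 lower (median -0.54, against -0.0059 for all genes), beside 9.15% and 11.8%.

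Among the same lists, stroma-like against endothelial-like sums were higher for 21 and lower for 9 (26.8% and 24.2% of all genes), with Rarres2 6.84 ± 0.21 higher in stroma. Endothelial-like against nephron progenitor-like sums had 13 higher and 17 lower (29.7% and 33.4%), with Tgm2 (5.67 ± 0.30) and Rbp7 (49 UMIs against 2) among the higher. Podocyte-like sums had 9 higher and 14 lower (30.6% and 31.2%), led by Rarres1 (6.62 ± 0.32). Proximal tubule-like sums had 19 higher and 13 lower (33.2% and 34.7%), led by Ttr (7.87 ± 0.35), the carrier of the retinol-Rbp4 complex. Nephrogenic-zone stroma-like sums had 4 of 37 tested genes higher and 14 lower than the medullary ones, beside 10.4% and 12.4% of all genes. Rbp4 and Rarres1 (-4.05 ± 0.54) were among these. Rbp4 had 0 UMIs in the nephrogenic zone and 287 in the medulla, so its summed level was at least 130-fold lower than in the medulla with the floor of 3 counts over both libraries. Rbp4 and Aldh1a2 thus had opposite orders in these 2 sub-clusters. Against interstitial stroma 4 were higher and 10 lower (9.15% and 11.8%). Tip-like against collecting duct-like sums had 7 higher and 4 lower (11.4% and 13.4%), with Adh1 (-5.25 ± 0.42) among the lower. Lrat, which esterifies retinol, had 63 UMIs in tip-like and 0 in collecting duct-like cells, a summed level at least 13.02-fold higher. Leaving out replicate 1 or replicate 2 moved some of these values by over 1.5 times: Tgm2 in endothelial-like sums to 4.83 or 6.47, Ttr in proximal tubule-like sums to 7.62 or 9.21, Adh1 in ureteric-like sums to 5.96 or 7.12, Rarres1 in nephrogenic-zone against medullary stroma to -5.46 or -3.41, and Adh1 in tip-like against collecting duct-like sums to -4.26 or -6.02. All these calls are by edgeR at an adjusted p under 0.05.

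The genes whose levels over the 10 classes were most like those of each member were named by the correlation of log2(CPM + 1) over the class means, among 11618 genes. These are descriptions over 10 classes that share the same 2 libraries. For Aldh1a2 they were Cacna2d1 (r = 0.953), Hoxc10 (0.944) and Ncam1 (0.933), and for Aldh1a3 they were Atp12a (0.979), Spink8 and Guca2a (0.975). Cyp26b1 was most like 8430408G22Rik (0.991), Sez6l2 (0.986) and Exoc3l (0.982). Rarb was most like Eml1 (0.965), Rarg like Nov (0.941), Rara like Fam212a (0.932), Aldh1a1 like Ppp1r3c (0.967), Crabp1 like Gm26771 (0.927) and Crabp2 like Stra6 (0.937), the membrane receptor for Rbp4. Among the 9 genes themselves, the highest correlation was between Aldh1a1 and Aldh1a3 (0.889), followed by Aldh1a2 with Crabp1 (0.781) and Cyp26b1 with Rarg (0.745), while Aldh1a2 and Cyp26b1 had -0.458.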

How the data were processed

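The deposited matrices hold raw counts of UMIs per gene and barcode, unfiltered. Cell Ranger 4 wrote them per the file headers, while the submitters' processing notes name Cell Ranger 6.0.1 and mm10. Gene positions are from RefSeq's GRCm38.p6 table, the same build. Barcodes with at least 2000 UMIs and at most 10% mitochondrial UMIs were kept. The highest Scrublet scores were removed at a rate that rises with the number of cells (310 and 212 barcodes, 4.98% and 4.12%; Scrublet's own threshold marked 63 and 22). Counts were clustered with scanpy 1.11.5 (2000 variable genes, 30 components, 15 neighbours, Leiden resolution 1; 0.5 for stromal and ureteric sub-clusters), leaving out the 9 genes, the pathway lists except Meis1, sex-linked genes, EYFP and mitochondrial genes.

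Clusters were named by their highest mean marker score, with at least 3 markers detected. Joining the stroma and mural lists into 1 class, the minimum score of 0.3, the minimum cells per cluster and the free RNA window of over 100 to 499 UMIs were set after the data were seen. UMIs summed per library and class were tested with edgeR 4.0.16 (R 4.3.3; TMM, filterByExpr, library block, Benjamini-Hochberg) in 1 fit of 10 classes (15084 genes, 9 residual degrees of freedom) and 1 of 14 classes with sub-classes (14110 genes, 13). Each library supplied all the classes, so same-numbered sums come from the same library and the block was kept. Intervals are exact at 95%, and they and the floor of 3 counts cover counting error only. Tested on simulated data for stroma-like against nephron progenitor-like sums (15084 genes), the fit called 61 of 106 genes changed by 1 on the log2 scale (57.5%) and 80 of 94 changed by 2 (85.1%), with 2 false calls. The simulated spread (dispersion) was the same for every gene and larger than the common dispersion fitted to the data (0.00413). These rates therefore need not hold for the data. The 9 genes are all named. Of the pathway lists, the 3 largest called changes per comparison with the same direction in both libraries were eligible for naming, and for each of the 9 genes the 3 most alike genes. Other clusters are named by their leading genes after their values were seen. The members and lists were chosen with earlier results of these data known. Alternatives were 5000 UMIs, 5% mitochondrial UMIs, no doublet removal, other resolutions, a per-cell marker gate, DESeq2 1.42.0, no count filter, no block and each library left out. A comparison of nephrogenic-zone with mesangial stroma was planned, but no sub-cluster was named mesangial. Sequences were not used here, and some results are not reported here.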

Additional observations from a re-analysis of the deposited data

How the results depend on the processing

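Among the log2 fold changes recomputed under alternatives, 803 kept their direction or their lack of a call, 26 missed the threshold, 12 newly passed it and 5 turned sign. Sign changes that passed in neither setting are counted among the 803. Values with 1 library left out carry no p-value, so a lost or new call could not register for them. They left the 803 only if a called difference turned sign. Of the recomputed class levels, 199 moved by no more than the SD between the libraries and 53 by more. The 199 include all levels with 1 library left out. With 2 libraries such a level cannot move by more than that SD, so those values say nothing about stability. Counts of called genes stayed within 1.5 times in 73 cases. The 1 exception was tip-like against collecting duct-like sums, with 2 in place of 4 at 5000 UMIs. With at most 5% mitochondrial UMIs, which kept 2825 and 1878 cells, Aldh1a2 turned to -0.10 in stroma against nephron progenitor. In proximal tubule against nephron progenitor, Aldh1a2 turned to 0.31, Rarg to 0.31 and Crabp1 to 1.91 at that limit. Rarb in nephrogenic-zone against interstitial stroma turned to -0.10 at sub-clustering resolution 1. The cause was not tested. Comparisons with the ureteric-like class as a whole, medullary stroma, ureteric tip and collecting duct could not be fitted at the 5% limit. No sub-cluster was named medullary without doublet removal.

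Without the replicate block, which pairs sums of the same library, 5 differences missed the threshold: Aldh1a2 (0.36) and Crabp1 (0.76) in stroma against nephron progenitor, Rarb in ureteric against nephron progenitor (-0.46), and Rarb in nephrogenic-zone stroma against medullary (-0.50) and interstitial stroma (0.63). The block changed no other call among the 9 genes. Leaving out 1 library leaves no residual degrees of freedom, so those values carry no test. Depth limits Crabp1, Crabp2, Aldh1a1 and Cyp26b1, since classes with 0 to 3 UMIs give only bounds or wide intervals.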

Other observations

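Clusters that received no class name hold further values of the 9 genes, given here without a test. A cluster led by Slpi, Msln and Upk3b, genes of mesothelium and serosal linings, had only 6 cells in each library. It held 13 and 1 UMIs of Aldh1a1 and 5 and 16 UMIs of Aldh1a2, so neither gene's count was alike in both libraries. A cluster led by Tagln and Pcp4, whose best marker score was that of podocytes, had 152 and 134 CPM of Aldh1a2. The named podocyte-like cluster had 65.3 and 66.6 CPM, below it in both libraries. A shallow cluster led by S100a9, a neutrophil gene, had 40 cells in replicate 1 and 4 in replicate 2. Its Rara level of 77.0 CPM in replicate 1 rested on 15 UMIs, and that of replicate 2 on only 4 UMIs.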
